A study of Mus musculus with 48 samples.

Results

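The stathmins (Stmn1, Stmn2, Stmn3 and Stmn4) and the collapsin response mediators (Crmp1, Dpysl2, Dpysl3, Dpysl4 and Dpysl5) are 9 genes of 34183 in each of the 2 deposited expression tables, and they were found there by matching Ensembl identifiers to their symbols. The 48 RNA-seq libraries came from primary cultures, enriched for neurons, of wild-type adult mouse dorsal root ganglion (DRG), which holds the cell bodies of sensory neurons. Right after isolation the cells received an ON-TARGETplus siRNA pool against Atf3 (siAtf3), Atf4 (siAtf4), Jun (siJun), Stat3 (siStat3), Klf6 (siKlf6), Rest (siRest) or Alyref (siAlyref), or the control pool (siCONTROL), and RNA was taken 42 h later. Other cultures received synthetic mRNA for Atf4 with Cebpg, for Atf4, or for green fluorescent protein (GFP), and an untransfected group was taken at time 0. Each of the 12 groups held 4 libraries. Each target was reached by 1 siRNA pool, and whether the replicates are distinct animals or cultures is not stated, so p-values measure only the spread between these libraries, which may be technical.

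Stathmins bind tubulin dimers and keep them out of microtubules, and phosphorylation releases that hold. Stmn1 is cytosolic and found in many dividing cells, whereas Stmn2 (SCG10), Stmn3 (SCLIP) and Stmn4 (RB3) are neuronal forms anchored to membranes by palmitoylation, Stmn2 being a known marker of growing axons. Collapsin response mediators are cytosolic partners of tubulin and actin that act downstream of class 3 semaphorins, which make growth cones collapse. Dpysl2 (CRMP2) promotes microtubule assembly until kinases such as Cdk5 and GSK3 phosphorylate it, and Crmp1, Dpysl3 (CRMP4), Dpysl4 (CRMP3) and Dpysl5 (CRMP5) are its relatives. Sensory neurons lose their axons on dissociation and regrow neurites in culture, so both families belong to the machinery at work in these cells.

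All 9 genes passed the filter on low counts in each of the 3 edgeR fits, which held 13448 genes for siCONTROL against time 0, 14876 for the siRNA groups and 13857 for the mRNA groups. Column totals were 1539198 to 6621566 in the siRNA table and 2097054 to 5959173 in the mRNA table, the lowest being siKlf6 replicate 1. The knockdowns left between 16.8% (Atf4) and 36.3% (Rest) of the control level of the transcript they were aimed at. The 10 pan-neuronal markers summed to 9588 to 11069 CPM (TMM-normalised counts, with every library brought to 1 common size) in siCONTROL libraries. There 7 satellite glia markers summed to 741 to 863 CPM and 7 Schwann cell markers to 694 to 1000.0 CPM. Such sums depend on which genes are listed and how abundant each is, so they do not measure the shares of the cell types. In such bulk samples fewer cells of a type and less RNA per cell cannot be told apart.

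Stmn2 was the most abundant of the 9 genes and Dpysl4 the least. Because the deposited values behaved as counts weighted by transcript length, CPM levels of different genes are set side by side here as levels per length. In siCONTROL cultures Stmn2 averaged 1710.1 ± 163 CPM, Stmn3 1027 ± 70.8 CPM, Stmn1 710.4 ± 70.0 CPM and Stmn4 473 ± 29.3 CPM (SD, n = 4). Among the collapsin response mediators Dpysl3 was highest at 361 ± 10.2 CPM, followed by Crmp1 at 218 ± 9.57 CPM. Dpysl2 had 90.2 ± 4.03 CPM, Dpysl5 83.1 ± 5.04 CPM and Dpysl4 10.8 ± 1.65 CPM in the same libraries. The GFP mRNA cultures, held in the other table and scaled apart from the siRNA libraries, had levels close to these, with 1615 ± 139.8 CPM of Stmn2, 440.1 ± 20.6 CPM of Stmn4 and 192 ± 5.82 CPM of Crmp1.

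**Figure D1:**
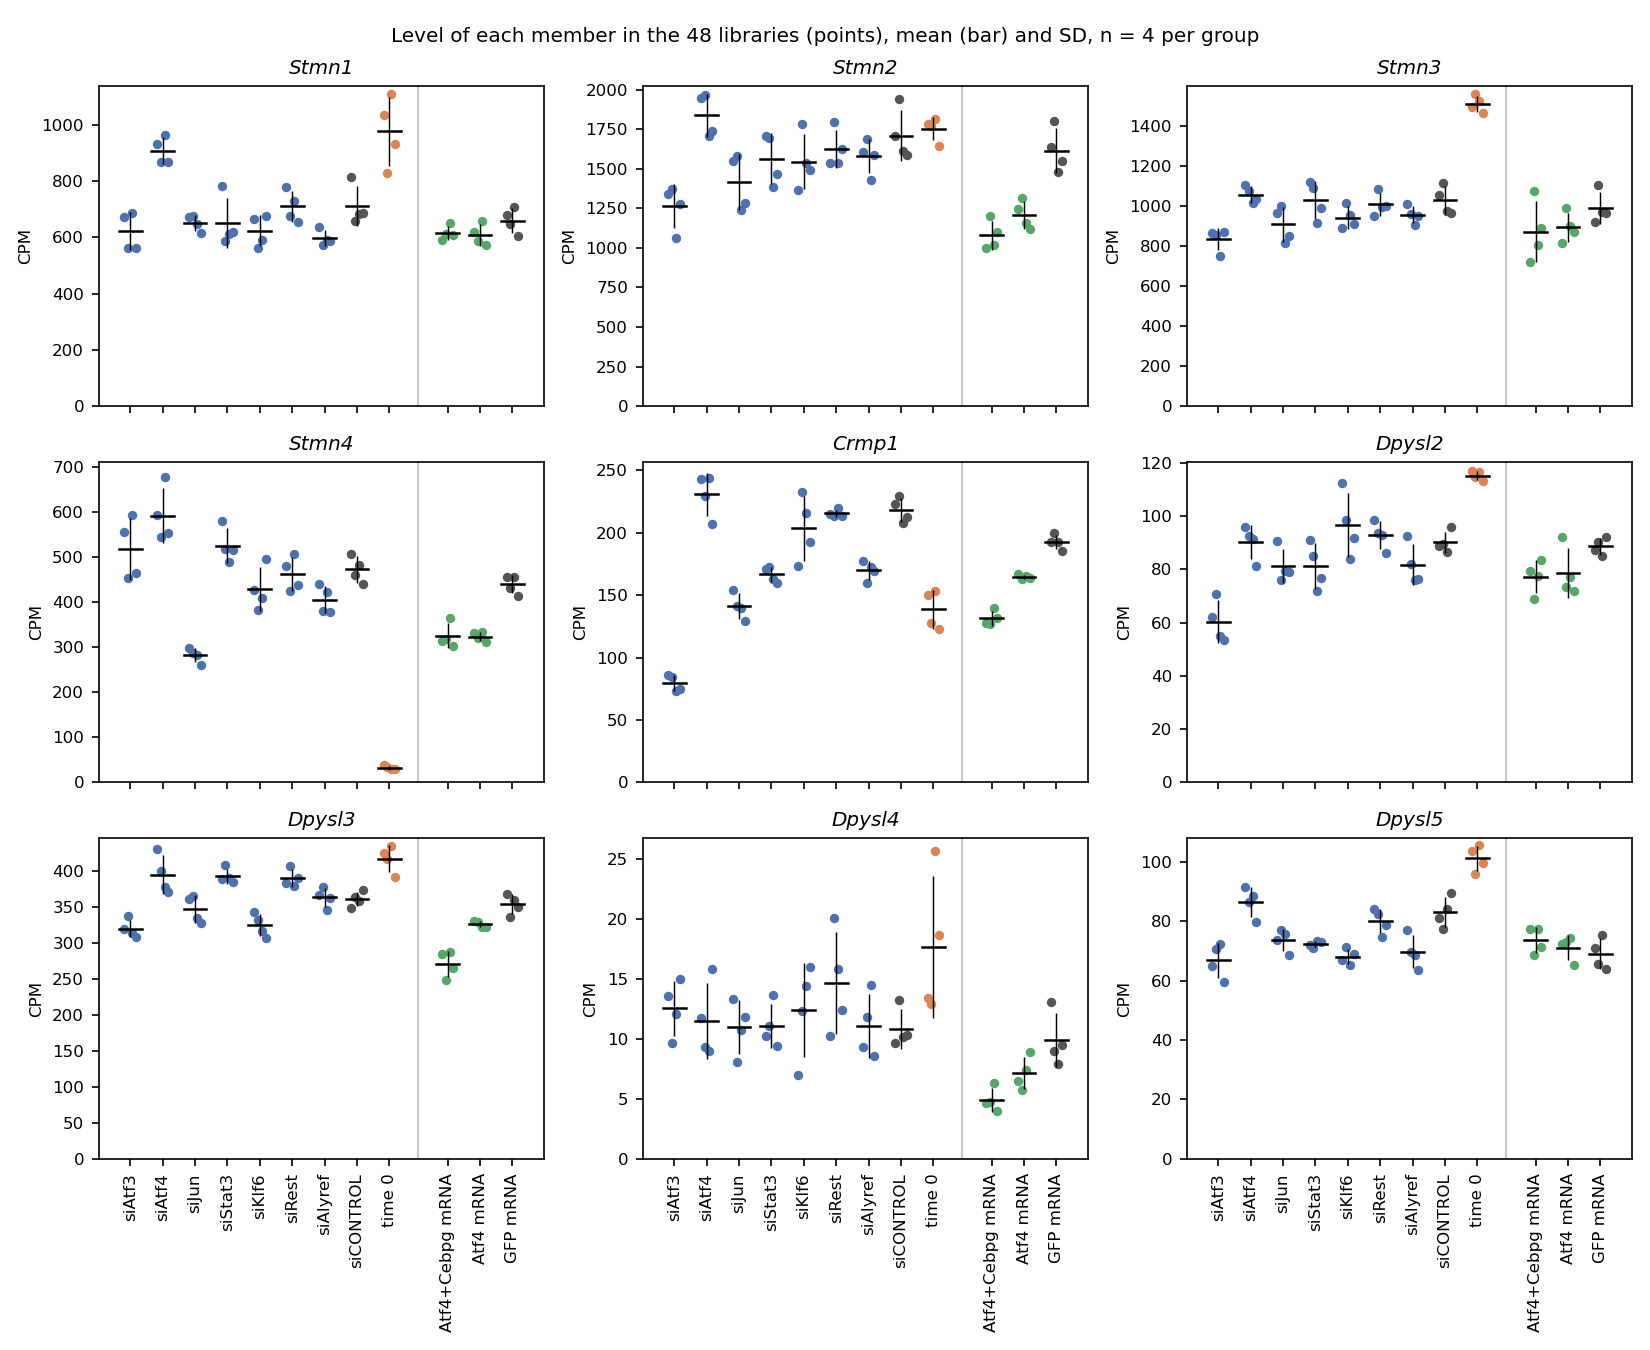
Level of each gene in CPM (vertical axis, from 0) in every library (points) of the 12 groups, with the mean (bar) and SD (line, n = 4); the grey line parts the siRNA table from the mRNA table, which were scaled separately. Stmn4 stands at 439.8 to 508 CPM in siCONTROL and near 0 at time 0 (28.8 to 37.9 CPM), and Crmp1 is lowest in siAtf3 (73.5 to 85.9 CPM).

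Stmn4 and Crmp1 were higher in siCONTROL cultures at 42 h than at time 0, and most of their relatives were lower. The time 0 libraries were untransfected, so the effects of the hours in culture and of transfection cannot be told apart. Stmn4 was 14.4-fold higher in siCONTROL than at time 0 and Crmp1 1.57-fold higher, while Stmn1, Stmn3, Dpysl2, Dpysl3, Dpysl4 and Dpysl5 were lower and Stmn2 did not pass the test. Thus 2 of 9 genes were higher, where 28.7% of all genes tested were, and 6 of 9 lower, where 29.2% were. In either direction 57.9% of genes were called, so a count of 8 is read against a high background, and the median log2 fold change was -0.291 over the 9 genes and 0.011 over all genes.

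Stmn4 measured 508, 460.3, 483 and 439.8 CPM in the 4 siCONTROL libraries, against 37.9, 34.7, 28.8 and 29.5 CPM at time 0. Every siCONTROL library stood far above every time 0 library (log2 fold change 3.85 ± 0.0984 SE, adjusted p = 7.33e-10, edgeR's quasi-likelihood test). Crmp1 measured 223, 229, 208 and 213 CPM in siCONTROL, against 150.2, 128, 153 and 123 CPM at time 0. The ranges did not overlap (log2 fold change 0.65 ± 0.0842 SE, adjusted p = 5.44e-05). Stmn2, the neurite marker of the family, had 1704, 1942, 1610.3 and 1584 CPM in siCONTROL and 1786, 1769, 1815 and 1647 CPM at time 0, and the ranges overlapped. Its log2 fold change was -0.04 with an approximate 95% interval of -0.18 to 0.10 (adjusted p = 0.654).

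Stmn3 fell to 67.9% of its time 0 level, with 966 to 1115 CPM in siCONTROL, against 1461 to 1556 CPM at time 0 (log2 fold change -0.56 ± 0.0624 SE, adjusted p = 1.74e-05). Stmn1 fell to 72.5% (log2 fold change -0.46 ± 0.0982 SE, adjusted p = 0.00183). Dpysl2, the tubulin-binding CRMP2, fell to 78.0% (log2 fold change -0.36 ± 0.0671 SE, adjusted p = 0.000801). Dpysl5 fell to 81.7% (adjusted p = 0.00604) and Dpysl3 to 86.3% (adjusted p = 0.00828), each without overlap between the groups. Dpysl4 had 9.60 to 13.3 CPM in siCONTROL and 12.9 to 25.6 CPM at time 0, overlapping ranges (log2 fold change -0.70 ± 0.232 SE, adjusted p = 0.0229), and without time 0 replicate 3 the log2 fold change was -0.46 and the adjusted p 0.0734. Leaving out siCONTROL replicate 1, 3 or 4 also moved its adjusted p past the threshold, to 0.0576 to 0.0596.

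The makeup of the stathmins differed more between the time points than their sum. The 4 stathmins summed to 3920.4 ± 244 CPM in siCONTROL and 4271 ± 179 CPM at time 0 (SD, n = 4), and Stmn4 made up 12.1 ± 0.792% of the sum in siCONTROL, against 0.767 ± 0.103% at time 0. The 5 collapsin response mediators summed to 764 ± 16.7 CPM in siCONTROL and 790.1 ± 40.6 CPM at time 0, with a Crmp1 share of 28.6 ± 1.25% in siCONTROL, against 17.5 ± 1.09% at time 0. These sums are descriptions and were not tested. Cell type markers moved over the same interval: the pan-neuronal sum was 9588 to 11069 CPM in siCONTROL and 13704 to 14817 CPM at time 0, with 6 of 10 markers lower and 1 higher. Satellite glia markers summed to 741 to 863 CPM in siCONTROL and 4518 to 5585 CPM at time 0, and Schwann markers to 694 to 1000.0 CPM in siCONTROL and 1810.0 to 2220.3 CPM at time 0. Cell cycle genes summed to 141 to 174 CPM in siCONTROL and 66.5 to 75.1 CPM at time 0, with 5 of 5 tested higher. The part of these shifts in the changes of the 9 genes was not tested.

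**Figure D2:**
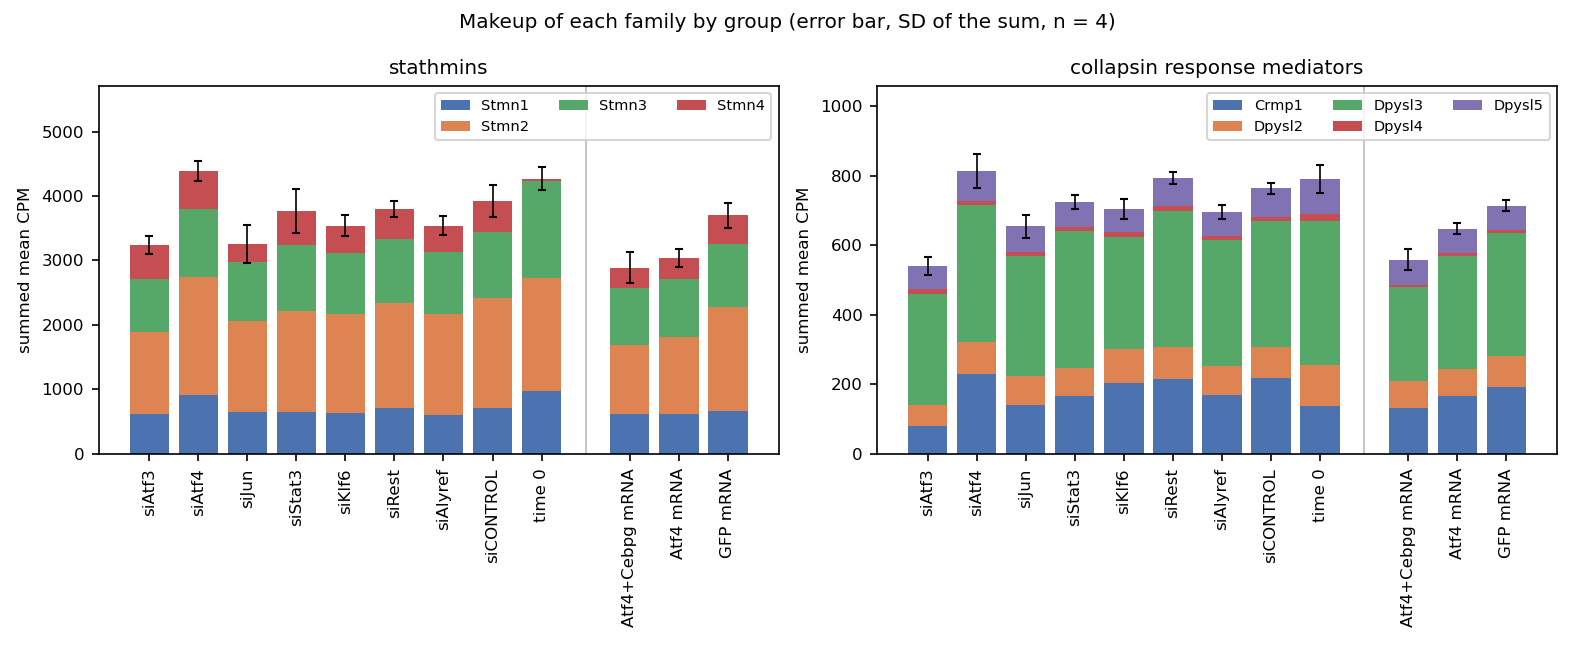
Summed mean CPM (vertical axis, from 0) of the 4 stathmins (left panel) and the 5 collapsin response mediators (right panel) in each group, coloured by gene, with the SD of the sum over 4 libraries as error bar. Stmn4 is 12.1% of the sum in siCONTROL and a thin slice at time 0, and the mediator sum is lowest in siAtf3 at 539.5 CPM.

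Knockdown of Atf3, a transcription factor induced in injured sensory neurons, lowered 6 of the 9 genes, Crmp1 by far the most. Crmp1 fell to 36.5% of control, Dpysl2 to 67.1%, Stmn2 to 73.9%, Dpysl5 to 80.5%, Stmn3 to 81.2% and Dpysl3 to 88.6%. None was higher, and Stmn1, Stmn4 and Dpysl4 did not pass the test. With the replicate number as a block in the edgeR fit, Stmn1 did (adjusted p = 0.0168). Of all genes tested 7.49% were lower, 4% higher and 11.5% called in either direction. The median log2 fold change was -0.30 over the 9 genes, against 0.01 over all genes.

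Crmp1 measured 85.9, 84.5, 73.5 and 74.7 CPM in the 4 siAtf3 libraries, against 223, 229, 208 and 213 CPM in siCONTROL. The highest siAtf3 library stood far below the lowest control (log2 fold change -1.45 ± 0.0746 SE, adjusted p = 1.13e-14). These levels were also below each of the 4 time 0 libraries (123 to 153 CPM), a difference that was not tested. Dpysl2 had 62.2, 70.8, 55.1 and 53.5 CPM in siAtf3, against 88.6, 89.5, 86.6 and 95.9 CPM in siCONTROL, with no overlap (log2 fold change -0.58 ± 0.0942 SE, adjusted p = 6.48e-05). Stmn2 had 1342, 1369.6, 1064 and 1280.4 CPM in siAtf3, against 1704, 1942, 1610.3 and 1584 CPM in siCONTROL. All siAtf3 libraries were lower (log2 fold change -0.44 ± 0.0959 SE, adjusted p = 0.00203).

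The 3 smaller changes were also free of overlap between groups, a description for which the share over all genes was not counted. Stmn3, located at the Golgi and on vesicles, had 749 to 870.0 CPM in siAtf3 and 966 to 1115 CPM in siCONTROL (log2 fold change -0.30 ± 0.0704 SE, adjusted p = 0.00388). Dpysl5 had 59.4 to 72.4 CPM in siAtf3 and 77.5 to 89.4 CPM in siCONTROL (log2 fold change -0.31 ± 0.0679 SE, adjusted p = 0.00174). Dpysl3, which binds actin, had 309 to 337 CPM in siAtf3 and 349 to 374 CPM in siCONTROL (log2 fold change -0.18 ± 0.0509 SE, adjusted p = 0.0216). The Dpysl3 call was lost, at an adjusted p of 0.0512 to 0.0678, without siCONTROL replicate 2 or 4 or without siAtf3 replicate 1, 3 or 4, and at 0.0753 without the filter on low counts and 0.0659 with only these 2 groups in the fit. Stmn4 went the other way without passing the test, with 454 to 594 CPM in siAtf3 and 439.8 to 508 CPM in siCONTROL (log2 fold change 0.13, approximate 95% interval -0.04 to 0.30, adjusted p = 0.402). Pan-neuronal markers moved with this group: 6 of 10 were lower and 0 higher, and their sum was 8058 to 8908 CPM in siAtf3, against 9588 to 11069 CPM in siCONTROL. Satellite glia markers summed to 538 to 664 CPM in siAtf3 and 741 to 863 CPM in siCONTROL, with 1 of 7 lower and 0 higher. Median log2 fold changes were -0.357 over the pan-neuronal markers and -0.004 over the satellite glia markers. The part of these shifts in the fall of the 6 genes was not tested.

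Because Crmp1 varied most among the siRNA groups, its start regions are shown. RefSeq on GRCm38.p6, an older build than the GRCm39 of the expression tables, gives Crmp1 2 starts on the plus strand of chromosome 5, and the window at each runs from 250 bases before to 50 after it.
Crmp1 upstream start, chr5:37241808-37242107, plus strand: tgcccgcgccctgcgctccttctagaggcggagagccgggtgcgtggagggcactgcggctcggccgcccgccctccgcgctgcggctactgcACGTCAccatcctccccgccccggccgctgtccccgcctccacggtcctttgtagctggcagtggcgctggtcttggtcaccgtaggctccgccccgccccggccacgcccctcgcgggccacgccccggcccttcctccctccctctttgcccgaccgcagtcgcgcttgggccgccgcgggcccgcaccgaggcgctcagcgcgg
Crmp1 downstream start, chr5:37245514-37245813, plus strand: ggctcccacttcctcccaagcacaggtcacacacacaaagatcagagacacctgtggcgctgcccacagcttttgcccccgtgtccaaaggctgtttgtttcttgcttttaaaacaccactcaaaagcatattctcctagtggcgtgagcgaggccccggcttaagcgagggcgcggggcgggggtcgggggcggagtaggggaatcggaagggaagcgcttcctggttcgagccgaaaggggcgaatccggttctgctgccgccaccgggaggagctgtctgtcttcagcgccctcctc
Capitals mark ACGTCA, the reverse complement of TGACGT, the core of the cyclic AMP response element that ATF and CREB proteins bind, with its first base at position -157 from the upstream start. Windows were searched on both strands for 7 letter patterns, listed after the fold changes were known: TGACTCA (AP-1 site), TGACGTCA (full response element), TGACGT (its core), CGTCA (its inner 5 letters, within the core), TGATGNAA (C/EBP-ATF composite), TTCNNNGAA (STAT site) and GGGCGG (GC box). The core occurred in 7.51% of all 32851 windows, the inner 5 letters in 20.8%, the full element in 1.79%, the AP-1 site in 5.2%, the composite in 3.97%, the STAT site in 8.30% and the GC box in 35.7%. The upstream Crmp1 window also held 5 GC boxes and the downstream window 2. The Dpysl5 window held 1 GC box and the Stmn3 window none of the 7 patterns. A match describes letters in a window and shows no binding, and the other 6 genes are not analysed here.

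Knockdown of Jun, the AP-1 subunit that rises after axon injury, lowered Stmn4 and Crmp1. Stmn4 fell to 59.9% of control and Crmp1 to 64.9%, the only 2 of 9 called, where 4.59% of all genes tested were lower, 3.19% higher and 7.78% called in either direction. The median log2 fold change was -0.168 over the 9 genes and 0.001 over all genes. Stmn4 measured 299, 287, 283 and 261 CPM in siJun, against 508, 460.3, 483 and 439.8 CPM in siCONTROL. Every siJun library was lower than every control (log2 fold change -0.74 ± 0.0896 SE, adjusted p = 1.47e-06). Crmp1 measured 154, 141, 139.9 and 129.6 CPM in siJun, against 223, 229, 208 and 213 CPM in siCONTROL. Here too the ranges were apart (log2 fold change -0.62 ± 0.0724 SE, adjusted p = 6.57e-07).

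Set against time 0, the siJun levels of the 2 genes stood at different points between the time 0 and siCONTROL means, as a description without a test. Stmn4 in siJun was 8.63-fold its time 0 mean, which is 56.8% of the distance to siCONTROL. Crmp1 in siJun was 1.02-fold its time 0 mean, 3.43% of that distance, and its range of 129.6 to 154 CPM overlapped that of time 0 at 123 to 153 CPM. Stmn2 and Dpysl5 were lower in all 4 siJun libraries than in any control without passing the test. Their log2 fold changes were -0.27 (adjusted p = 0.0841) and -0.17 (adjusted p = 0.145). With the replicate number as a block in the edgeR fit, Stmn2 (adjusted p = 0.00163) and Stmn3 (0.0181) passed the test in siJun. Of the pan-neuronal markers 1 of 10 was higher and 1 lower in siJun, and their sum was 8872 to 10185 CPM in siJun and 9588 to 11069 CPM in siCONTROL, overlapping ranges. Satellite glia markers summed to 491 to 711 CPM in siJun and 741 to 863 CPM in siCONTROL, without overlap. Of the 7 markers 1 was lower and 0 higher. Their median log2 fold change was 0.205, so the lower sum does not hold for the list as a whole. The part of the lower sum in the 2 calls was not tested.

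The 2 knockdowns were compared with each other directly, since both share the siCONTROL libraries. Against siAtf3, siJun had Stmn4 lower and Crmp1 and Dpysl2 higher, 3 of 9 genes, where 9.87% of all genes were called (5.99% higher and 3.89% lower). Stmn4 was 261 to 299 CPM in siJun and 454 to 594 CPM in siAtf3 (log2 fold change -0.87 ± 0.0895 SE, adjusted p = 4.14e-08). Crmp1 was 129.6 to 154 CPM in siJun and 73.5 to 85.9 CPM in siAtf3 (log2 fold change 0.83 ± 0.0746 SE, adjusted p = 3.24e-09). Dpysl2 was 75.8 to 90.5 CPM in siJun and 53.5 to 70.8 CPM in siAtf3 (log2 fold change 0.43 ± 0.0941 SE, adjusted p = 0.00236). None of these 3 genes' ranges overlapped. Dpysl3 was called as well with the replicate number as a block in the edgeR fit (adjusted p = 0.0468). Jun itself was at 97.4% of control in siAtf3 (adjusted p = 0.842) and Atf3 at 85.2% of control in siJun (adjusted p = 0.143), neither past the threshold.

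**Figure D3:**
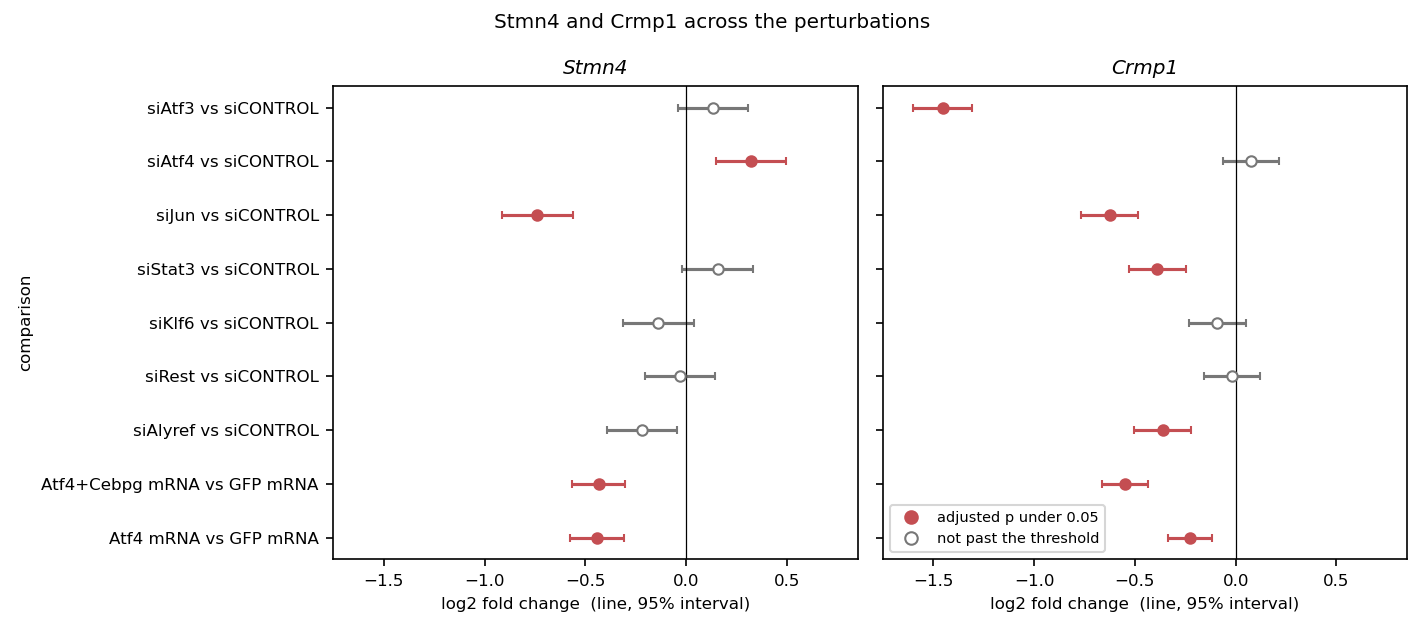
log2 fold change of Stmn4 (left panel) and Crmp1 (right panel) in each perturbation against its control (horizontal axis; points with lines for the approximate 95% interval; filled red, adjusted p under 0.05). Crmp1 is at -1.45 and Stmn4 at 0.13 with siAtf3, whereas with siJun Crmp1 is at -0.62 and Stmn4 at -0.74; the 7 knockdowns share 1 set of control libraries, as do the 2 mRNA treatments.

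Knockdown of Atf4, the effector of the integrated stress response, moved 2 stathmins up. Stmn1 and Stmn4 were higher, 2 of 9, where 2.74% of all genes tested were higher, 4.17% lower and 6.91% called in either direction. Stmn1 measured 931, 866, 964 and 867 CPM in siAtf4, against 814, 658, 683 and 687 CPM in siCONTROL, without overlap (log2 fold change 0.35 ± 0.0848 SE, adjusted p = 0.00881). Stmn4 measured 593, 544, 678 and 554 CPM in siAtf4, against 508, 460.3, 483 and 439.8 CPM in siCONTROL (log2 fold change 0.32 ± 0.0885 SE, adjusted p = 0.0223). The Stmn4 ranges did not overlap either, but its adjusted p was 0.061 without siCONTROL replicate 2, 0.0801 without siCONTROL replicate 4 and 0.124 without siAtf4 replicate 3. Crmp1 was at 207 to 244 CPM in siAtf4 and 208 to 229 CPM in siCONTROL (log2 fold change 0.07, approximate 95% interval -0.06 to 0.21). Of the pan-neuronal markers 3 of 10 were higher in siAtf4 and 0 lower, with sums of 9785 to 10597 CPM in siAtf4 and 9588 to 11069 CPM in siCONTROL. Satellite glia markers summed to 614 to 738 CPM in siAtf4 and 741 to 863 CPM in siCONTROL, without overlap. Of these 7 markers 1 was higher and 0 lower, and their median log2 fold change was -0.097. The part of these shifts in the 2 calls was not tested.

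The direct contrasts with siAtf4 covered nearly the whole group. In siAtf3, 7 of 9 genes were lower than in siAtf4, where 12.1% of all genes were (10.7% higher and 22.9% in either direction), led by Crmp1 (log2 fold change -1.53 ± 0.0744 SE, adjusted p = 2.79e-15). Stmn1, Stmn2, Stmn3, Dpysl2, Dpysl3 and Dpysl5 followed with log2 fold changes of -0.57 for Dpysl2 to -0.30 for Dpysl3. Stmn4 did not pass the test (-0.19, adjusted p = 0.128). It did at 0.0387 without siAtf3 replicate 3 and at 0.0142 with the replicate number as a block. In siJun 7 of 9 were lower than in siAtf4, where 9.11% of all genes were (9.45% higher and 18.6% in either direction), led by Stmn4 (log2 fold change -1.06 ± 0.0897 SE, adjusted p = 4.11e-10) and Crmp1 (log2 fold change -0.70 ± 0.0721 SE, adjusted p = 1.96e-08). Stmn3, Dpysl3 and Dpysl5 were called there as well (adjusted p 0.0354, 0.0115 and 0.0179), but each call was lost under some single-library omissions. Stmn3 was lost without siAtf4 replicate 1 or 2 or siJun replicate 3 or 4 (adjusted p 0.0697 to 0.131), Dpysl3 without siAtf4 replicate 1 or siJun replicate 4 (0.0636 and 0.0556), and Dpysl5 without siAtf4 replicate 1 or 3 or siJun replicate 4 (0.0523 to 0.0776). Against siStat3, siJun had 3 of 9 lower, where 5.4% of all genes were (4.54% higher and 9.94% in either direction): Stmn4 (log2 fold change -0.89 ± 0.0898 SE, adjusted p = 2.71e-08), Crmp1 (-0.24, adjusted p = 0.0353) and Dpysl3 (-0.18, adjusted p = 0.0225). Leaving out siJun replicate 4 ended the last 2 of these calls, at adjusted p 0.139 for Crmp1 and 0.0977 for Dpysl3, as did siJun replicate 3 (0.0813 and 0.084) and siStat3 replicate 2 (0.11 and 0.097). Crmp1 was also lost without siJun replicate 2 and without siStat3 replicate 1 or 3 (0.0573 to 0.0825). Stmn3 was gained without siStat3 replicate 3 (0.0483) and with the replicate number as a block (0.0158).

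Crmp1 was lower again when Stat3 or Alyref was targeted. Stat3 is the transcription factor activated by cytokine receptors, and Alyref an adaptor for mRNA export. With siStat3 only Crmp1 of the 9 was called, where 3.03% of all genes were called in either direction, 1.19% higher and 1.84% lower. Crmp1 measured 171, 173, 163 and 159.9 CPM in siStat3, against 223, 229, 208 and 213 CPM in siCONTROL, without overlap (log2 fold change -0.39 ± 0.0723 SE, adjusted p = 0.00135). With siAlyref Crmp1 and Dpysl5 were lower, 2 of 9, where 4.26% of all genes were called, 0.881% higher and 3.37% lower. Crmp1 measured 177, 159.8, 173 and 169 CPM in siAlyref, below every siCONTROL library (log2 fold change -0.36 ± 0.0721 SE, adjusted p = 0.00186). Stmn1 (adjusted p = 0.00527) and Stmn4 (0.0215) were also lower in siAlyref with the replicate number as a block in the edgeR fit. Pan-neuronal markers were lower for 2 of 10 in either knockdown, with 0 higher. Macrophage markers summed to 47.5 to 69.2 CPM in siStat3, against 26.9 to 46.4 CPM in siCONTROL, with 0 of 3 tested called. Their sums were 32.9 to 64.0 CPM in siKlf6 and 36.2 to 61.4 CPM in siRest. The transcript of Klf6, itself 1 of the targets, was lower in each of the 4 knockdowns in which Crmp1 was called, at 76.9% of control in siAtf3 (adjusted p = 0.00769), 75.9% in siJun (0.00724), 73.4% in siStat3 (0.00595) and 71.5% in siAlyref (0.00201). Atf3 was at 79.2% of control in siStat3 (adjusted p = 0.0399). With siKlf6, where Klf6 was at 22.6% of control, Crmp1 did not pass the test (log2 fold change -0.09, adjusted p = 0.703). The part of these shifts in the Crmp1 calls was not tested.

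Dpysl5 was the gene that passed the test with siKlf6, and it did so narrowly. Klf6 is a zinc-finger factor tied to axon growth in zebrafish retina. Dpysl5 measured 66.9, 71.4, 65.3 and 68.9 CPM in siKlf6, against 81.3, 77.5, 84.3 and 89.4 CPM in siCONTROL, 1 of 9 genes lower, where 1.14% of all genes were lower, 0.706% higher and 1.85% called in either direction (log2 fold change -0.28 ± 0.0694 SE, adjusted p = 0.0239). The ranges were apart, yet without siKlf6 replicate 1 or 4 or without siCONTROL replicate 3 or 4 the adjusted p was 0.0502 to 0.102. Without the filter it was 0.0564, and 0.272 with only these 2 groups in the fit. Stmn1 was also lower in siKlf6 with the replicate number as a block in the edgeR fit (adjusted p = 0.0436). In siAlyref Dpysl5 was 63.6 to 77.0 CPM, below the siCONTROL range of 77.5 to 89.4 CPM (log2 fold change -0.25 ± 0.0683 SE, adjusted p = 0.031), and 5 of the 8 single-library omissions moved its adjusted p to 0.069 to 0.143. In siStat3 it was 71.0 to 73.2 CPM, also below every control, without passing the test (-0.20, adjusted p = 0.132).

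None of the 9 genes passed the test with siRest, and few genes of the table did. Rest is the repressor that keeps neuronal genes silent in other cells, and the rat Stmn2 gene is a classic holder of its RE1 element. Called were 0 of 9 genes, with 1 at an unadjusted p under 0.05, where 0.202% of all genes tested passed by edgeR (0.0134% higher and 0.188% lower). DESeq2 and limma-voom also called 0 of the 9 genes in siRest, where of all 14876 genes tested DESeq2 called 43 and limma-voom 21. Stmn2 measured 1539, 1797, 1539 and 1622 CPM in siRest and 1704, 1942, 1610.3 and 1584 CPM in siCONTROL, overlapping ranges (log2 fold change -0.07, approximate 95% interval -0.26 to 0.11, adjusted p = 0.985). Rest was scarce, at 3.27 CPM in siRest and 8.40 CPM in siCONTROL.

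**Figure D4:**
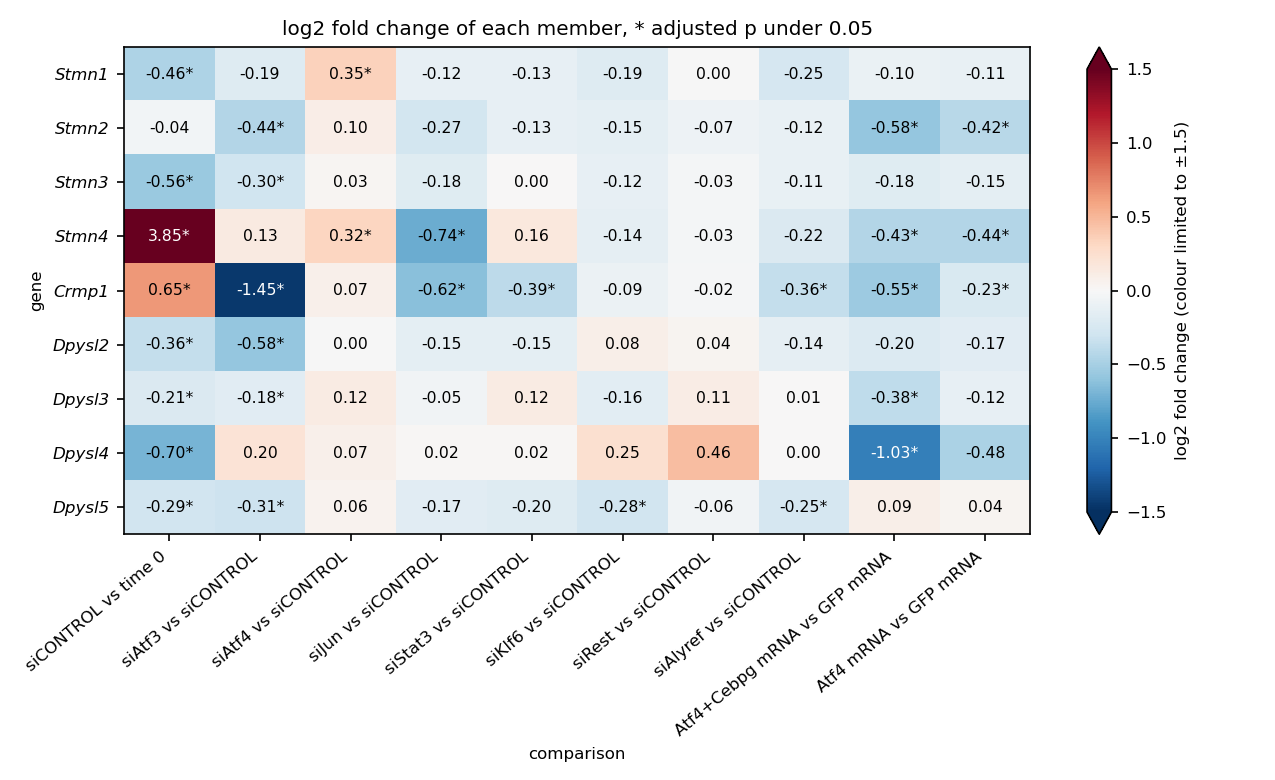
log2 fold change of each gene (rows) in 10 comparisons (columns); colour runs from blue (lower) to red (higher), limited to 1.5 on either side, and an asterisk marks an adjusted p under 0.05. Crmp1 carries an asterisk in 7 of the 10 columns and Stmn4 in 5, and the siRest column has none.

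Synthetic mRNA for Atf4 with its dimer partner Cebpg lowered 5 of the 9 genes. Dpysl4 was at 49.1% of its GFP mRNA level, Stmn2 at 66.9%, Crmp1 at 68.3%, Stmn4 at 74.0% and Dpysl3 at 76.6%. Of all genes tested 12.2% were lower, 12.4% higher and 24.6% called in either direction, and the median log2 fold change was -0.384 over the 9 genes, against -0.003 over all genes. Crmp1 measured 127, 127, 139 and 131 CPM with Atf4 and Cebpg mRNA, against 192, 199, 193 and 185 CPM with GFP mRNA. The ranges were far apart (log2 fold change -0.55 ± 0.0578 SE, adjusted p = 1.88e-05). Stmn2 measured 1000.1, 1200.0, 1019 and 1101 CPM with both mRNAs, against 1635, 1801, 1477 and 1548 CPM with GFP mRNA, again without overlap (log2 fold change -0.58 ± 0.0814 SE, adjusted p = 0.000195).

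Stmn4 and Dpysl3 followed, and Dpysl4 changed most in fold at a low level. Stmn4 measured 315, 319, 366 and 302 CPM with both mRNAs, against 457, 432, 457 and 415 CPM with GFP mRNA (log2 fold change -0.43 ± 0.068 SE, adjusted p = 0.000443). Dpysl3 was 249 to 288 CPM with both mRNAs and 336 to 368 CPM with GFP mRNA (log2 fold change -0.38 ± 0.061 SE, adjusted p = 0.000489). Dpysl4, a family member found mainly in neurons, measured 4.67, 4.71, 6.33 and 3.97 CPM with both mRNAs, against 13.1, 8.96, 7.89 and 9.51 CPM with GFP mRNA (log2 fold change -1.03 ± 0.233 SE, adjusted p = 0.00578). None of these ranges overlapped. In the same cultures Atf3 was at 54.2% of its GFP mRNA level (adjusted p = 1.33e-05) and Jun at 59.5% (adjusted p = 1.35e-05), while Cebpg stood at 60944 CPM with both mRNAs and 46.4 CPM with GFP mRNA. Pan-neuronal markers summed to 8121 to 9392 CPM with both mRNAs and 9519 to 10729 CPM with GFP mRNA, with 2 of 10 lower and 1 higher. The median log2 fold change of these 10 markers was 0.021, so the lower sum does not hold for the list as a whole. Stmn3 was 717 to 1073 CPM with both mRNAs and 921 to 1102 CPM with GFP mRNA and did not pass the test (-0.18, adjusted p = 0.247). It did at 0.047 without the replicate 2 library of the Atf4 and Cebpg group and at 0.0302 with the replicate number as a block. Satellite glia markers summed to 428 to 533 CPM with both mRNAs and 567 to 642 CPM with GFP mRNA. Of these 7 markers 1 was higher and 1 lower, and their median log2 fold change was -0.069. Endothelial and mural markers summed to 250.5 to 293 CPM with both mRNAs and 174 to 241 CPM with GFP mRNA, with 3 of 6 higher and 0 lower. The part of these shifts in the fall of the 5 genes was not tested.

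Atf4 mRNA alone lowered 3 of the 9 genes. Stmn4 was at 73.6% of its GFP mRNA level, Stmn2 at 74.9% and Crmp1 at 85.5%, where 2.09% of all genes tested were lower, 2.76% higher and 4.84% called in either direction. Stmn4 measured 331, 320.0, 334 and 311 CPM with Atf4 mRNA, against 457, 432, 457 and 415 CPM with GFP mRNA, without overlap (log2 fold change -0.44 ± 0.0677 SE, adjusted p = 0.00255). Stmn2 measured 1248, 1314, 1155 and 1122 CPM with Atf4 mRNA, below all 4 GFP mRNA libraries (log2 fold change -0.42 ± 0.0811 SE, adjusted p = 0.0101). Crmp1 measured 167, 163, 165 and 164 CPM with Atf4 mRNA, also below all 4 (log2 fold change -0.23 ± 0.0569 SE, adjusted p = 0.0367), but each of the 8 single-library omissions moved its adjusted p past the threshold, to 0.0547 to 0.0963. Without the filter that p was 0.0861, and 0.061 with only these 2 groups in the fit. Atf4 was 14085 CPM in these cultures and 639 CPM with GFP mRNA. Jun was at 71.1% of its GFP mRNA level (adjusted p = 0.00235). Atf3 was at 80.2%, without overlap between the groups and not past the threshold (adjusted p = 0.0546). Pan-neuronal markers summed to 8638 to 9422 CPM with Atf4 mRNA and 9519 to 10729 CPM with GFP mRNA, with 1 of 10 lower and 0 higher. Satellite glia markers summed to 447 to 524 CPM with Atf4 mRNA and 567 to 642 CPM with GFP mRNA, with 1 of 7 lower and 0 higher. Neither pair of summed ranges overlapped, and the median log2 fold change was -0.112 over the pan-neuronal and -0.055 over the satellite glia markers. The part of these shifts in the 3 calls was not tested.

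With both mRNAs Crmp1 and Dpysl3 were lower than with Atf4 mRNA, 2 of 9 genes, where 2.1% of all genes tested were lower, 4.5% higher and 6.6% called in either direction. Crmp1 was 127 to 139 CPM with both mRNAs and 163 to 167 CPM with Atf4 mRNA (log2 fold change -0.32 ± 0.0581 SE, adjusted p = 0.00423). Dpysl3 was 249 to 288 CPM with both and 322 to 331 CPM with Atf4 mRNA (log2 fold change -0.27 ± 0.0612 SE, adjusted p = 0.0188), a call lost without the replicate 2 or 4 library of the Atf4 and Cebpg group (adjusted p 0.0609 and 0.0594). Stmn4 had overlapping ranges of 302 to 366 CPM with both and 311 to 334 CPM with Atf4 mRNA (log2 fold change 0.01, approximate 95% interval -0.13 to 0.14). Both knockdown and added mRNA concerned Atf4, and Stmn4 was called in each. Its log2 fold change was 0.32 with siAtf4, a call lost in 3 single-library omissions, and -0.44 with Atf4 mRNA. Stmn1 was at 0.35 with siAtf4 and -0.11 with Atf4 mRNA (adjusted p = 0.384). With siAtf4 Stmn2 was at 0.10 (adjusted p = 0.654) and Crmp1 at 0.07 (0.646), against -0.42 and -0.23 with Atf4 mRNA. These values come from separately scaled tables, and their differences were not tested.

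Genes that act beside the 2 families were counted from lists chosen with earlier results of these data known. Beside them, the shares of all genes tested were 28.7% higher and 29.2% lower in siCONTROL than at time 0, 4% higher and 7.49% lower in siAtf3, and 3.19% higher and 4.59% lower in siJun. They were 2.74% higher and 4.17% lower in siAtf4 and 12.4% higher and 12.2% lower with Atf4 and Cebpg mRNA. Of microtubule-associated and plus-end proteins, 5 of 26 tested were higher and 15 lower in siCONTROL than at time 0, with Mapt (tau) at a log2 fold change of -1.70, adjusted p = 5.54e-08. The list's median was -0.284, against 0.011 over all genes. In siAtf3 1 of 27 was higher and 5 lower, Clip1 at -0.60, adjusted p = 2.94e-05 and Tppp3 at -0.52, adjusted p = 0.000404. In siJun 2 of 27 were higher and 2 lower, Mapt at 0.47, adjusted p = 0.012 and the doublecortin-like kinase Dclk1 at -0.45, adjusted p = 0.00532. With Atf4 and Cebpg mRNA 1 of 27 was higher and 10 lower than with GFP mRNA, and in siAtf4 2 were higher and 0 lower. Of severing, destabilising and tubulin-modifying enzymes, 4 of 18 were higher and 5 lower in siCONTROL than at time 0, shares no larger than those over all genes. Vash2, which removes the terminal tyrosine of tubulin, was at 3.21, adjusted p = 6.25e-07 there, at -0.70, adjusted p = 0.00263 in siAtf3, at -0.85, adjusted p = 0.000622 in siJun and at -0.57, adjusted p = 0.043 in siStat3. The tyrosine ligase Ttl was at -0.75, adjusted p = 1.79e-07 in siAtf3, where 1 of 20 was higher and 5 lower.

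Of class 3 semaphorins, their receptors and the kinases acting on collapsin response mediators, 11 of 29 were higher and 11 lower in siCONTROL than at time 0, where 28.7% of all genes were higher and 29.2% lower. The semaphorin receptor subunit Plxna4 was at 2.01, adjusted p = 1.38e-08 and the kinase Camk2a at -3.06, adjusted p = 3.26e-08 on the log2 scale. Plxna4 was at -0.86, adjusted p = 3.2e-10 in siAtf3, where 0 of 29 were higher and 5 lower, at -0.45, adjusted p = 8.24e-05 in siStat3 and at -0.44, adjusted p = 6.09e-05 in siAlyref. In siJun 1 of 29 was higher and 7 lower, the ligand Sema3e at -0.93, adjusted p = 0.00294 and the Cdk5 activator Cdk5r1 at -0.84, adjusted p = 0.00181. Cdk5r1 was at 0.71, adjusted p = 0.00457 in siAtf4, where 5 of 29 were higher and 1 lower. With Atf4 and Cebpg mRNA 3 of 29 were higher and 8 lower than with GFP mRNA. Of kinases and phosphatases acting on stathmins, listed together with upstream members of their pathways, 3 of 18 were higher and 10 lower in siCONTROL than at time 0, with Camk4 at -1.61, adjusted p = 5.95e-05. In siAtf3 0 of 18 were higher and 5 lower, the JNK scaffold Mapk8ip1 at -0.67, adjusted p = 5.26e-07 and Map2k4 at -0.56, adjusted p = 0.000156, and in siJun 0 were higher and 2 lower.

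The 32 siRNA libraries at 42 h also show which genes' levels ran alongside each member, as a description over libraries that share culture, group and depth. Among 9614 genes with a mean of at least 10 CPM, the level of Stmn2 was most like that of Stmn3 (Pearson r 0.942 on log2 CPM with a pseudocount of 1), then Tagln3 (0.923) and Nefl (0.916), the light neurofilament chain. Stmn3 had Stmn2, Tppp3 (0.908) and Tagln3 (0.903) nearest. Crmp1 had Pacs2 (0.953), Angptl2 (0.919) and Fam102b (0.907), and Dpysl2 had Angptl2 (0.867), Prkg1 (0.848) and Crmp1 itself (0.843). Stmn1 had Samd14 (0.818) nearest, Dpysl3 Rnf157 (0.873), Dpysl5 Shc2 (0.822), Stmn4 Dctn1 (0.776) and Dpysl4 Pole4 (0.621). With group means removed, r was 0.941 for Stmn2 with Stmn3, 0.83 for Stmn1 with Stmn4 and -0.259 for Stmn2 with Stmn4, on log2 levels of the same 32 libraries. Shifts shared by libraries of the same replicate number, described under Other observations, were not removed. Their part in these r values was not tested.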

How the data were processed

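RNA from 48 libraries was measured by stranded mRNA sequencing, per the labels. The deposited values are expected counts, that is kallisto estimates with fractions, and the submitters' processing notes name GRCm39 as the build. They come in 1 table for siRNA and time 0 libraries and 1 for mRNA libraries. Which kallisto version, annotation release and scaling were used is not given in the sources used here. In genes with 1 transcript, small values times transcript length clustered near 1 constant (1898 to 2195 bp, with 45.9% to 62.2% of values within 4%), so levels were taken as weighted by length, a reading from the values themselves. That makes the counting error assumed by the model an underestimate for short genes and an overestimate for long genes.

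All 48 columns were matched to samples by name (0 unused, 0 identical pairs). Symbols came from GENCODE on GRCm38 and matched 32470 of 34183 identifiers, and start windows came from RefSeq on GRCm38.p6, which held 4 windows for 3 of the 9 genes that could be shown. Expected counts were rounded, filtered with filterByExpr, scaled by TMM and tested in R 4.3.3 with edgeR 4.0.16 (quasi-likelihood F test), with Benjamini-Hochberg adjustment over all genes tested and a threshold of 0.05. The 8 siRNA groups at 42 h were fitted together, the 3 mRNA groups together, and siCONTROL with time 0 alone, and tests were made only within a table. SE is the absolute log2 fold change over the root of F, and intervals are the approximate 95% ones from SE. Overlap between the libraries of 2 groups is a description of single genes, and the share of all genes without overlap was not counted. The tests were checked on simulated data. DESeq2 1.42.0, limma-voom (limma 3.58.1), another scaling, no filter, 2 groups at a time, the replicate number as a block and single-library omissions were tried as alternatives.

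The 9 genes and all lists were chosen with earlier results of these data known. Named beside them are the 3 genes most correlated with each over the 32 siRNA libraries at 42 h, and up to 4 of the most changed genes called in each list.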

Additional observations from a re-analysis of the deposited data

Results flagged for a closer look

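Among 108 groups of 4 libraries (9 genes in 12 groups), 2 held a library far from the other 3, its gap to the nearest being over the 95% limit of Dixon's test, where chance alone flags about 1 group in 20. Stmn1 measured 783.289 CPM in siStat3 replicate 1 and 587 to 617 CPM in the other 3 siStat3 libraries. Stmn3 measured 749.199 CPM in siAtf3 replicate 3 and 856 to 870.0 CPM in the other 3 siAtf3 libraries. Without siAtf3 replicate 3 the log2 fold change of Stmn3 in siAtf3 against siCONTROL was -0.25 (adjusted p = 0.027), and without siStat3 replicate 1 that of Stmn1 in siStat3 was -0.22 (adjusted p = 0.171).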

How the results depend on the processing

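Over the 9 genes and 15 comparisons, no value called in the report or under an alternative changed sign. Under other settings 775 values kept their side of the threshold, 10 gained a call and 16 lost one, and under single-library omissions 1028 kept it, 3 gained and 49 lost one. Counts of called genes moved by more than 1.5 times as follows, and the cause was not tested. Without a filter on low counts the count was 0 for siKlf6 (1 as reported), 1 for siAlyref (2 as reported) and 1 for siJun against siStat3 (3 as reported). With only the 2 groups compared in the fit it was 0 for siKlf6, 1 for siAlyref, 1 for siJun against siStat3 and 1 for Atf4 with Cebpg against Atf4 mRNA (2 as reported). Of single genes beyond those in the report, Dpysl5 in siAlyref lost its call without the filter (adjusted p 0.0867) and with only 2 groups (0.157), as did Stmn3 in siJun against siAtf4 (0.0752 and 0.0537) and, in siJun against siStat3, Crmp1 (0.091 and 0.0753) and Dpysl3 (0.0913 and 0.128). With only 2 groups Dpysl3 also lost it in siJun against siAtf4 (0.0673) and for both mRNAs against Atf4 mRNA (0.053). Replicate numbers did not pair the libraries by the rule used, since same-numbered libraries deviated together by correlations of 0.03 to 0.18 and not every one was over 0.1, although 6 to 8 of 8 libraries (6 of 6 for siKlf6) correlated best with their own number. With the replicate block the count was 4 for siJun (2 as reported), 2 for siKlf6 and 4 for siAlyref. Calls over all 14876 genes rose with it too, to 1620 for siJun (1157 as reported), 398 for siKlf6 (275) and 881 for siAlyref (633). The 10 calls gained under other settings all came with this block: Stmn2 (adjusted p 0.00163) and Stmn3 (0.0181) in siJun, Stmn1 in siAtf3 (0.0168), siKlf6 (0.0436) and siAlyref (0.00527), Stmn4 in siAlyref (0.0215), Stmn3 with Atf4 and Cebpg mRNA against GFP mRNA (0.0302), Dpysl3 in siJun against siAtf3 (0.0468), Stmn3 in siJun against siStat3 (0.0158) and Stmn4 in siAtf3 against siAtf4 (0.0142). Leaving out 1 library at a time gave 7 to 8 genes for siCONTROL against time 0, 5 to 6 in siAtf3, 1 to 2 in siAtf4, 2 to 2 in siJun, 1 to 1 in siStat3, 0 to 1 in siKlf6, 0 to 0 in siRest, 1 to 2 in siAlyref, 2 to 2 with Atf4 mRNA, 5 to 6 with Atf4 and Cebpg mRNA, and 1 to 2 for both mRNAs against Atf4 mRNA. For the direct contrasts it gave 3 to 3 for siJun against siAtf3, 4 to 7 for siJun against siAtf4, 1 to 3 for siJun against siStat3 and 7 to 8 for siAtf3 against siAtf4. Counts over all genes moved too: with only 2 groups in the fit 204 genes were called for siStat3 (450 as reported), 18 for siKlf6 (275), 5 for siRest (30), 352 for siAlyref (633) and 943 for siJun against siStat3 (1478). With the replicate block 751 were called for siStat3, 46 for siRest and 1028 for Atf4 mRNA (671). Without a filter 18 were called for siRest. Leaving out 1 library gave 15 to 18 for siRest in 5 of its 8 omissions, 160 for siKlf6 without siKlf6 replicate 4, 339 to 442 for Atf4 mRNA in 5 of its 8 omissions, and 553 to 575 for both mRNAs against Atf4 mRNA (915) without the replicate 2 or 4 library of the Atf4 and Cebpg group. What depth limits was not tested; Dpysl4 was the least abundant of the 9 genes.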

Other observations

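The libraries with 1 replicate number stood on the same side of their group means for several of the 9 genes, a pattern noticed in the data and given as values only. Over the 8 groups of the siRNA table that carry the numbers 1 to 4, Stmn4 was above its group mean in replicate 1 in 8 of 8 groups (mean log2 deviation 0.107) and below it in replicate 4 in 8 of 8 (-0.098). Stmn1 was above in replicate 1 in 8 of 8 (0.126) and below in replicate 4 in 8 of 8 (-0.074). Stmn2 was above in replicate 2 in 8 of 8 (0.121) and below in replicate 3 in 7 of 8 (-0.118), and Stmn3 was above in replicate 2 in 8 of 8 (0.072) and below in replicate 3 in 7 of 8 (-0.085). Crmp1 was below in replicate 4 in 8 of 8 groups (-0.080), and Dpysl3 above in replicate 2 in 8 of 8 (0.045). The labels do not say what a replicate number stands for, and the pattern was not tested.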
